A study of Homo sapiens with 12 samples.

Results

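HCT116 cells, a human colorectal carcinoma line, that carried the DICER form labelled AA were compared with HCT116 cells carrying wild-type DICER (WT). Each form was measured in 2 libraries by AQ-seq, a small RNA sequencing method made to lessen the bias of adapter ligation. The comparison used 4 of the 12 libraries of the series, taken by the cell line and DICER form in their labels, and every human miRNA name in their tables. Of 1854 names listed for HCT116 (1971 in the whole series), 1808 had a read in a WT or AA library and 795 had enough reads to be tested. The other 8 libraries held HCT116 with a DICER lacking its double-stranded RNA-binding domain (dsRBD deletion), and HEK293T, a human embryonic kidney line, with the same 3 forms. The labels call every sample a rescue. The sources used here do not give what AA changes, the state of the cells' own DICER, whether a line is 1 clone or how much of each DICER form the cells held. DICER itself was not measured, since the tables hold small RNAs alone. An effect of AA and one of a different amount of DICER therefore cannot be told apart. Nor do the labels say whether the libraries of a form are from separate cultures. A p-value here measures the spread between libraries alone. For single miRNAs in HCT116, that spread was estimated over all 6 HCT116 libraries, the 2 of the dsRBD deletion included.

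A miRNA is made in 2 cuts. DROSHA releases a hairpin from the primary transcript in the nucleus, and DICER cuts the loop off that hairpin in the cytoplasm, leaving a duplex of a 5p strand (from the hairpin's 5′ arm) and a 3p strand (from its 3′ arm). An Argonaute protein keeps one strand, the guide, and the other is mostly lost. The guide finds its targets mainly through its seed, bases 2 to 8, so miRNAs with the same seed form a family, and a shift of the DICER cut or of the kept strand changes which messages are repressed. Some hairpins skip DROSHA: mirtrons are released by splicing, and the hairpins of miR-484 and miR-320a are made directly as short or capped transcripts. MiR-451a skips DICER and is cut by AGO2. Counts per miRNA name do not show where a read starts or ends, so cut positions were not measured here.

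The mature sequences that the results turn on are shown 5′ to 3′, with the seed in capitals, from RefSeq (GRCh38.p14). These 12 names had the largest falls with AA among miRNAs of at least 100 CPM (reads scaled by library size and TMM factor), and each has a different seed:
miR-484: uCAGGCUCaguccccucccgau
miR-331-3p: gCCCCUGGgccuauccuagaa
miR-99b-5p: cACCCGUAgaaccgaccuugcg
miR-3200-3p: cACCUUGCgcuacucaggucug
miR-361-3p: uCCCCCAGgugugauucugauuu
miR-3615: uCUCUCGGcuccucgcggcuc
miR-125b-5p: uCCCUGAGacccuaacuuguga
miR-615-3p: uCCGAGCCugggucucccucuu
miR-1307-3p: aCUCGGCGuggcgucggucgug
miR-744-5p: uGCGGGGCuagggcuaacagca
let-7e-5p: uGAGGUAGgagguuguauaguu
miR-193b-3p: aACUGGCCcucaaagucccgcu
These 3 are the matched names among the 4 that rose at that level. MiR-31-3p, the fourth, is named only:
miR-196b-3p: uCGACAGCacgacacugccuuc
miR-7-1-3p: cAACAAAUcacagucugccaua
miR-4521: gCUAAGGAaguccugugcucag
The next set shares a seed with a fallen name, so that family members can be compared below. MiR-99a-5p and miR-100-5p carry the seed of miR-99b-5p, miR-125a-5p that of miR-125b-5p, miR-221-3p that of miR-222-3p, and the last 5 that of let-7e-5p:
miR-99a-5p: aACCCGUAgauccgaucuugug
miR-100-5p: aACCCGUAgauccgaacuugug
miR-125a-5p: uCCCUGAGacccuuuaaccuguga
miR-221-3p: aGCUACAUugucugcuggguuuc
miR-222-3p: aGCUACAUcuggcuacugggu
let-7a-5p: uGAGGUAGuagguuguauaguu
let-7f-5p: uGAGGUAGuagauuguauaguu
let-7g-5p: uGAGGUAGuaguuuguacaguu
let-7i-5p: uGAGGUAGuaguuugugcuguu
miR-98-5p: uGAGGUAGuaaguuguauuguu

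With AA, a small set of miRNAs fell and a smaller one rose relative to the rest, and miR-484, miR-331-3p and miR-99b-5p fell the furthest among those of at least 100 CPM. By edgeR's quasi-likelihood test with Benjamini-Hochberg adjustment, 49 of 795 names (6.16%) were lower with AA and 10 (1.26%) were higher, 59 in all (7.42%). The split was 23 lower and 22 higher with library totals in place of TMM factors, and 23 and 11 with upper-quartile factors. The WT and AA libraries of all 59 did not overlap, as was true of 53.8% of tested names. Of the 49 that fell, 24 were 3p strands, 19 were 5p strands and 6 had no strand suffix. The 10 that rose were 6 3p strands and 4 names without a suffix, with 0 of the 339 tested 5p strands among them. The change reached 2-fold in 21 of the falls and 5 of the rises. Falls were called for 13.6% of the 103 names of at least 1000 CPM, 9.55% of the 157 from 100 to 1000, 5.45% of the 257 from 10 to 100 and 2.16% of the 278 below 10. The median SE of the log2 fold change moved with these shares, from 0.12 in the highest band to 0.48 in the lowest. Each WT or AA library held 3157018 to 4498886 miRNA reads, so 3 reads, which is what a count of 0 still allows, came to 0.755 to 0.987 CPM. This limit allows for counting error only, and the replicate libraries differed by more than that.

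**Figure D1:**
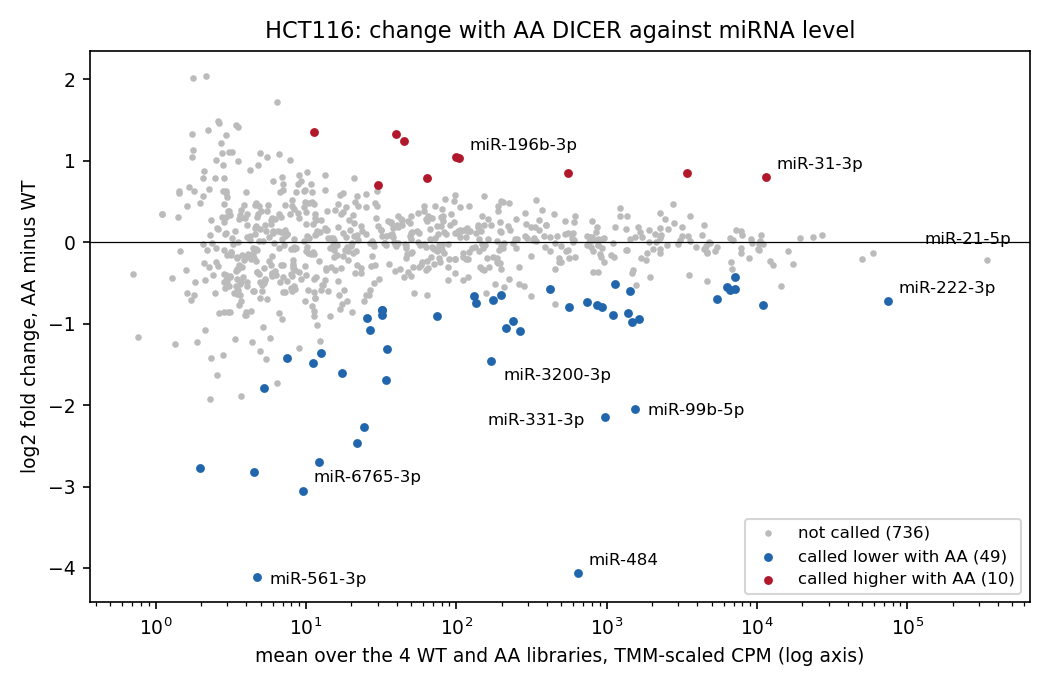
Each point is 1 of the 795 tested miRNA names in HCT116. The horizontal log axis is its mean over the 4 WT and AA libraries in TMM-scaled CPM, and the vertical axis its log2 fold change, AA minus WT. Blue marks the 49 called lower and red the 10 called higher by edgeR. Most called names lie within 2-fold of 0, and among names of at least 100 CPM miR-484 stands apart at −4.07.

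MiR-484 is made from the UTR exon of NDE1 (MIR484, chromosome 16, 15643294 to 15643372, plus strand, GRCh38), and its transcript forms a hairpin without DROSHA. It was at 1350 and 1085 CPM in the WT libraries and at 73.4 and 71.9 CPM with AA. Both AA libraries were thus far below both WT libraries and close to each other. The fall was 16.8-fold, a log2 fold change of −4.07 ± 0.17 (SE, n = 2 each), with an edgeR adjusted p of 1.6e-07. MiR-331-3p, whose gene lies between other genes on the plus strand of chromosome 12 (MIR331, 95308420 to 95308513), was at 1283 and 1881 CPM with WT and at 384 and 330 CPM with AA. It fell by 2.15 ± 0.19 on the log2 scale (edgeR adjusted p = 8.7e-05). MiR-99b-5p (MIR99B, chromosome 19, 51692612 to 51692681, plus strand, intron of SPACA6) was at 2629 and 2324 CPM with WT and at 606 and 596 CPM with AA. These 3 were the names of at least 100 CPM that fell to under 25% of WT, at 5.97%, 22.6% and 24.3% of it. The edgeR log2 fold change of miR-99b-5p was −2.04 ± 0.15 (adjusted p = 1.7e-05).

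A second tier fell to between 36.3% and 57.4% of WT. MiR-3200-3p (MIR3200, chromosome 22, intron of OSBP2) was at 266 and 233 CPM with WT and at 96.1 and 85.4 CPM with AA (log2 fold change −1.46 ± 0.19). MiR-361-3p (MIR361, chromosome X, intron of CHM) was at 360 and 358 CPM with WT and at 168 and 170 CPM with AA (−1.09 ± 0.13). In both the replicates lay close together and the forms did not overlap. MiR-3615, from the UTR exon of SLC9A3R1, was at 301 and 276 CPM with WT and at 141 and 137 CPM with AA (−1.05 ± 0.14). MiR-125b-5p, made from 2 loci, was at 1971 and 1936 CPM with WT and at 997 and 989 CPM with AA (−0.98 ± 0.16). MiR-615-3p, from an intron of HOXC4 and HOXC5, was at 348 and 281 CPM with WT and at 150 and 170 CPM with AA (−0.97 ± 0.19). These 3 were at about the same fraction of WT although their levels differed several-fold. MiR-1307-3p, from the UTR exon of ATP5MD, was at 2161 and 2132 CPM with WT and at 1095 and 1132 CPM with AA (−0.95 ± 0.13). MiR-744-5p, from an intron of MAP2K4, was at 1483 and 1371 CPM with WT and at 727 and 805 CPM with AA (−0.90 ± 0.13). Let-7e-5p, a let-7 family member from the same SPACA6 intron as miR-99b, was at 1828 and 1752 CPM with WT and at 994 and 965 CPM with AA (−0.87 ± 0.13). In each of these the lower WT library stayed above the higher AA library by more than the replicates differed. MiR-193b-3p (MIR193B, chromosome 16, intron of MIR193BHG) had the widest WT spread of the 12 as a ratio of its libraries, at 1463 and 910 CPM against 705 and 657 CPM with AA (−0.80 ± 0.20). The edgeR adjusted p values of these 9 ran from 0.001 for miR-361-3p to 0.0331 for miR-193b-3p.

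**Figure D2:**
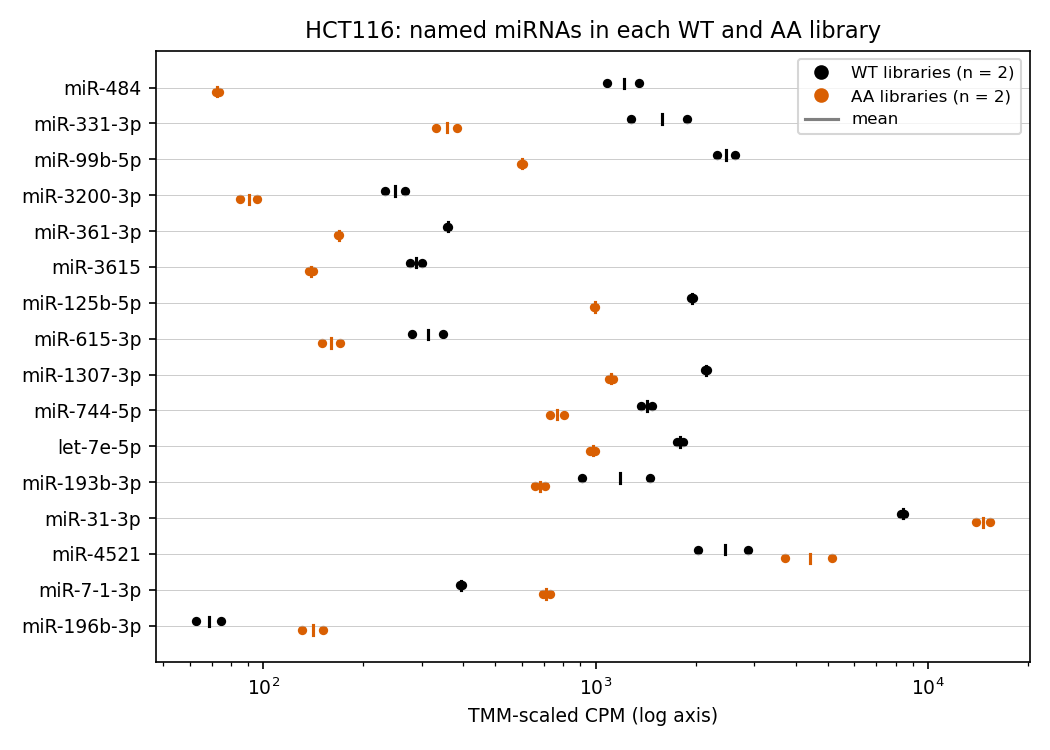
TMM-scaled CPM (log axis) of the 12 largest falls and 4 rises of at least 100 CPM in each HCT116 library. Black points are the 2 WT and orange points the 2 AA libraries, and a short bar is the mean of each pair. The pairs do not overlap for any of the 16, and on this log axis the WT points are widest apart for miR-193b-3p (910 and 1463).

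Leaving out 1 AA library ended most calls. The WT and AA libraries of all 59 did not overlap, so leaving 1 out could hardly reverse a direction. Without AA replicate 1, 9 of the 59 calls were kept (8 lower, 1 higher), and without AA replicate 2, 23 (19 lower, 4 higher), while all 59 kept their direction. MiR-484, miR-331-3p, miR-99b-5p, miR-3200-3p and miR-361-3p were called under all 16 alternatives run. MiR-3615, miR-125b-5p, miR-1307-3p, miR-744-5p and let-7e-5p lost their calls without AA replicate 1 alone, at −1.07 to −0.82. MiR-615-3p lost its call in 4 of the 16 and miR-193b-3p in 7, the latter at −0.42 without WT replicate 1.

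Among the 6 most abundant miRNAs, which took 52.0% and 53.6% of the WT reads and 50.2% and 50.3% of the AA reads, miR-222-3p was the one that was called. It fell from 89271 and 95249 CPM with WT to 56172 and 55799 CPM with AA (−0.72 ± 0.13, edgeR adjusted p = 0.00584). MiR-222-3p represses the cell cycle inhibitor CDKN1B. Its neighbour and seed partner miR-221-3p, made from the same transcript, was at 51487 and 55426 CPM with WT and at 45927 and 46542 CPM with AA, a log2 fold change of −0.21 ± 0.11 (adjusted p = 0.308). MiR-21-5p, the most abundant miRNA of these cells and raised in many carcinomas, was at 342980 and 387192 CPM with WT and at 310725 and 315286 CPM with AA. Its log2 fold change of −0.22 ± 0.11 did not pass the test (adjusted p = 0.308). Those of miR-31-5p (−0.13 ± 0.10), miR-24-3p (0.07 ± 0.10) and miR-29a-3p (0.09 ± 0.16) did not pass either. MiR-222-3p lost its call when either AA library was left out.

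The 4 rises of at least 100 CPM were smaller than the largest falls. MiR-196b-3p, from the HOXA9 region (MIR196B, chromosome 7, 27169480 to 27169563, minus strand), was at 74.7 and 62.6 CPM with WT and at 152 and 131 CPM with AA (log2 fold change 1.04 ± 0.16, edgeR adjusted p = 0.0033). MiR-7-1-3p, from the UTR exon of HNRNPK, was at 392 and 395 CPM with WT and at 730 and 693 CPM with AA (0.85 ± 0.13, adjusted p = 0.00237). Both are strands that are usually the less abundant one of their hairpin. MiR-4521 was at 2037 and 2882 CPM with WT and at 3718 and 5148 CPM with AA (0.85 ± 0.20, adjusted p = 0.0305). MiR-31-3p was at 8485 and 8321 CPM with WT and at 15387 and 13947 CPM with AA (0.80 ± 0.12, adjusted p = 0.00225). The AA libraries of miR-4521 were further apart as a ratio than those of the other 3. None of the 4 rises was called with scaling by spike-in size factors, as described below, or without AA replicate 1.

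Below 100 CPM, 20 names fell and 6 rose, of 278 tested below 10 CPM and 257 from 10 to 100. Over all tested names 6.16% fell and 1.26% rose. The largest falls rested on few AA reads. MiR-561-3p had 21 and 42 reads with WT and 2 and 1 with AA (edgeR adjusted p = 0.0115), and miR-3653-3p had 12 and 13 with WT and 2 and 1 with AA (0.0409). MiR-6765-3p had 67 and 57 reads with WT and 5 and 8 with AA, a log2 fold change of −3.05 ± 0.38. The mirtron miR-1228 lost both strands, with 41 and 18 reads against 4 and 3 for the 5p strand (−2.82 ± 0.58) and 116 and 44 against 10 and 11 for the 3p strand (−2.70 ± 0.46). WT replicate 1 held more miR-1228 reads than WT replicate 2 in both strands. The largest low-count rises were miR-662 (1.35 ± 0.35), miR-663a (1.33 ± 0.32), miR-139-3p (1.24 ± 0.21), miR-185-3p (1.04 ± 0.17) and miR-30c-1-3p (0.79 ± 0.18). Of these, miR-139-3p went from 121 and 77 reads with WT to 183 and 228 with AA and stayed called under every alternative run.

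The other strand of each called hairpin was looked up. Of the 59 called names, 37 had a tested partner: 31 partners were not called, where 7.42% of all tested names were called, 4 were called in the same direction and 2 in the opposite one. MiR-331-5p was at 150 and 170 CPM with WT and at 212 and 226 CPM with AA (log2 fold change 0.45 ± 0.14, edgeR adjusted p = 0.09), beside the fall of its 3p strand. MiR-361-5p was at 1236 and 1314 CPM with WT and at 1424 and 1430 CPM with AA (0.16 ± 0.12). The partners of the other named falls lay close to 0 or below: miR-3200-5p at −0.01, miR-1307-5p at 0.07, let-7e-3p at 0.06, miR-99b-3p at −0.33 and miR-744-3p at −0.62. MiR-193b-5p was at 0.33 ± 0.20. The 4 partners called in the same direction were the pairs of miR-1228 and miR-455, a miRNA of the COL27A1 gene, whose 5p and 3p strands fell by 0.71 ± 0.14 and 0.57 ± 0.14. MiR-185 was the hairpin with both strands called in opposite directions: its 5p strand went from 1292 and 1385 CPM with WT to 940 and 935 CPM with AA (−0.51 ± 0.13), and its 3p strand from 71.5 and 57.5 CPM to 129 and 137 CPM (1.04 ± 0.17). The call of miR-185-5p was lost under 7 of 16 alternatives. MiR-324, whose hairpin DICER is known to cut at alternative sites, fell in its 3p strand, from 973 and 868 CPM to 575 and 529 CPM (−0.74 ± 0.15), with miR-324-5p at 1581 and 1588 CPM with WT and 1779 and 1674 CPM with AA (0.12 ± 0.12).

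The balance of the strands was then tested hairpin by hairpin, as the ratio of 3p to 5p reads within a library, which does not depend on how libraries are scaled. With AA the ratio changed in 31 of 229 hairpins (13.5%), toward 5p in 20 (8.73%) and toward 3p in 11 (4.8%). In the miR-331 hairpin the 3p strand made up 89.5% and 91.7% of the reads with WT and 64.5% and 59.4% with AA, a log2 change of the ratio of −2.58 ± 0.22 (edgeR adjusted p = 1.2e-08). In the miR-584 hairpin it made up 6.24% and 7.24% with WT and 1.67% and 1.49% with AA (−2.16 ± 0.29). These are shifts in hairpins with opposite dominant strands: miR-331 is mostly read as 3p and miR-584 mostly as 5p. The 3p share of miR-361 was 22.6% and 21.4% with WT and 10.5% and 10.6% with AA (−1.25 ± 0.19), and that of miR-3200 was 90.9% and 88.8% with WT and 75.5% and 77.6% with AA (−1.45 ± 0.32). Toward 3p, the 3p share of miR-99b went from 7.92% and 8.38% to 21.6% and 23.4% (1.71 ± 0.24, adjusted p = 2.4e-05), that of miR-185 from 5.24% and 3.99% to 12.1% and 12.8% (1.56 ± 0.22) and that of miR-139 from 4.37% and 3.51% to 9.38% and 10.5% (1.43 ± 0.25). In none of these 7 did the WT and AA shares overlap, and in none did the more abundant strand change.

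Smaller called shifts included miR-203b (−1.21 ± 0.32), miR-193b (−1.11 ± 0.23), miR-25 (−1.07 ± 0.19), miR-1307 (−1.02 ± 0.17) and miR-324 (−0.86 ± 0.19) toward 5p. Those toward 3p included miR-1296 (1.08 ± 0.32), miR-98 (1.07 ± 0.23), miR-31 (0.94 ± 0.18) and let-7e (0.93 ± 0.23). Of the 20 hairpins that shifted toward 5p, 13 had a 3p strand that was called lower, beside 24 of all 311 tested 3p strands. None had a 5p strand called higher, as was true of all 339 tested 5p strands. Of the 11 that shifted toward 3p, 4 had a 5p strand called lower, beside 19 of all 339 tested 5p strands. A 3p strand was called higher in 4, beside 6 of all 311 tested 3p strands. The ratio and the strand calls use the same reads, so part of this overlap is built in. With the replicate number as a block 6 and 3 hairpins were called, and without any 1 of the WT or AA libraries 8 to 11 and 6 to 8. The call of miR-203b was lost in all of these fits, that of miR-99b with the block, and those of miR-3200, miR-98, miR-1296, miR-324, miR-193b and let-7e with the block and without 1 or more libraries, while those of miR-331, miR-361, miR-584, miR-185, miR-139, miR-1307, miR-25 and miR-31 were kept.

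**Figure D3:**
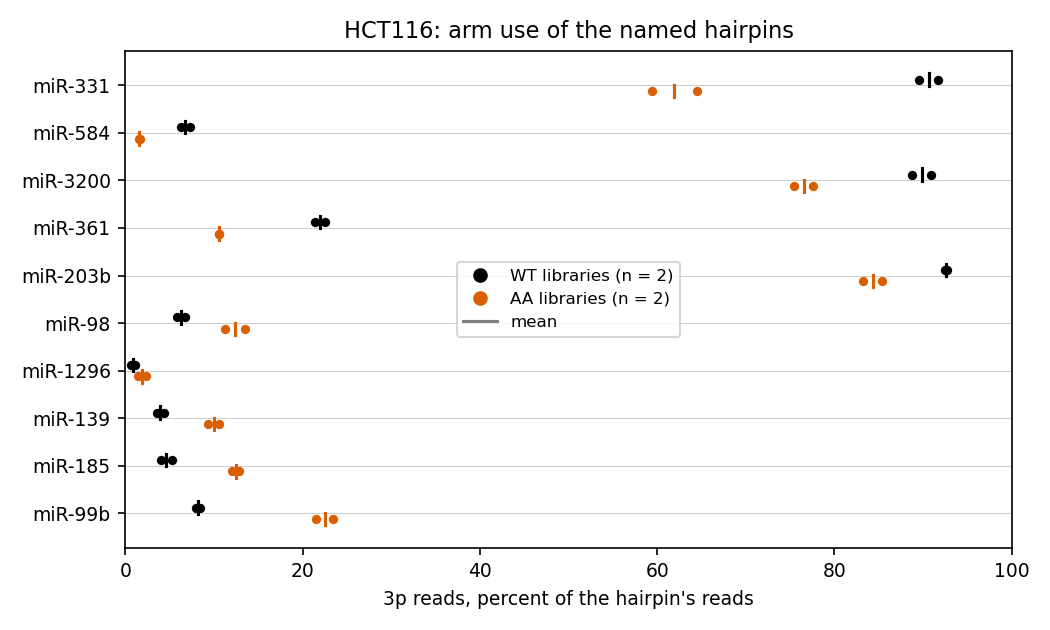
Share of 3p reads among the reads of both strands, in percent, for the 10 hairpins with the largest called shifts of at least 100 CPM. Black points are the 2 WT and orange points the 2 AA libraries, with a short bar at each mean. The miR-331 share moves from about 90% to about 62%, and the miR-99b share from about 8% to about 22%.

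The 4 hairpins below show how the strands lie in the precursor, 5′ to 3′, with both mature strands in capitals and the loop and flanks in lower case (RefSeq, GRCh38.p14). MIR99B and MIR185 shifted toward 3p and MIR361 and MIR193B toward 5p:
MIR99B: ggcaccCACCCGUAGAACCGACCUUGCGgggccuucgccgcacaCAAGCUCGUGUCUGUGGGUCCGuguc
MIR185: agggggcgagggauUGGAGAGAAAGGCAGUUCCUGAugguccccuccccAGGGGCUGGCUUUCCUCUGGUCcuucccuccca
MIR361: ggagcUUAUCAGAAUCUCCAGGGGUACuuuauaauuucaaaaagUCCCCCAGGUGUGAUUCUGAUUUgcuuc
MIR193B: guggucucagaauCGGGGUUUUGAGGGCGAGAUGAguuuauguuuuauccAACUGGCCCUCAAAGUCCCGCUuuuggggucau
Of the tested names, 697 of 795 matched a RefSeq mature entry and 457 of them came from a single locus with both strands annotated. Features of these hairpins are given as counts, without a test, and the 2 strands of a hairpin share its loop. Falls were called for 17 of 154 names (11.0%) with more than 17 bases between the strands, for 14 of 291 (4.81%) with 12 to 17 and for 3 of 12 with fewer. By the second base of the 3p strand they were called for 15 of 122 names with C (12.3%), 8 of 124 with U (6.45%), 7 of 133 with A (5.26%) and 4 of 78 with G (5.13%). The share over all 457 was 7.44%. GC content was taken over all 697 matched names, of which 6.46% fell. Falls were called for 9.68% of the 186 mature miRNAs with a GC content of 60% or more, and for 4.79% to 5.67% in the 3 bands below it. These 3 features are part of those looked at. By the next to last base of the 5p strand shares of falls were 4.92% to 10.9%, and by its last base 5.0% to 8.97%. They were 7.14% to 7.81% by the first base after that strand and 4.39% to 8.51% by its length. By the last base before the 3p strand they were 5.56% to 8.45%, and by its first base 5.45% to 8.72%. By the first base of the mature miRNA, again over the 697 matched names, they were 4.55% to 8.15%.

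Within seed families some members were called and others were not, and differences between members were not tested. Of 9 tested names with the let-7 seed GAGGUAG, 3 were called lower, beside 6.16% of all tested names. Besides let-7e-5p these were let-7f-5p, at 6369 and 7043 CPM with WT and at 4136 and 4151 CPM with AA (−0.69 ± 0.13), and miR-98-5p, at 1004 and 1164 CPM with WT and at 631 and 643 CPM with AA (−0.77 ± 0.19). Let-7 miRNAs repress LIN28, RAS and HMGA2 messages and are broadly expressed in differentiated cells. The most abundant of them, let-7a-5p, was at 13448 and 14336 CPM with WT and at 11364 and 11586 CPM with AA (−0.28 ± 0.13, edgeR adjusted p = 0.276). Let-7d-5p was at −0.40 ± 0.12 (adjusted p = 0.0656), and let-7b-5p (0.21), let-7c-5p (−0.07), let-7g-5p (−0.06) and let-7i-5p (0.02) were not called either. As the sequences above show, let-7f-5p and let-7a-5p are near-identical, and the counting rule for reads that match several names is not given. Let-7f-5p lost its call under upper-quartile scaling and when either AA library was left out, and miR-98-5p in those settings, with library totals and with the replicate block.

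The miR-99 and miR-125 families, whose genes lie beside let-7 genes in 3 clusters, were also called in part. MiR-99b-5p was the called one of the 3 names with seed ACCCGUA. MiR-100-5p, at 7906 and 7540 CPM with WT and 8312 and 8078 CPM with AA, had a log2 fold change of 0.09 ± 0.11, and miR-99a-5p one of 0.15 ± 0.24. In the cluster of miR-99b, let-7e and miR-125a, 2 of the 6 strands fell, beside 6.16% of all tested names. MiR-125a-5p, at 1881 and 1832 CPM with WT and 1303 and 1286 CPM with AA, was not called (−0.52 ± 0.19, edgeR adjusted p = 0.137). In the clusters of miR-100 and of miR-99a, let-7c and miR-125b, miR-125b-5p was the called one of 6 tested strands. Over all tested names 7.42% were called.

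The paralogous clusters of miR-23, miR-27 and miR-24 are known for roles in vessels and lipid metabolism. MiR-27b-3p fell from 7805 and 7247 CPM to 5382 and 4924 CPM (−0.55 ± 0.11), and miR-23b-3p from 8368 and 8109 CPM to 6440 and 5845 CPM (−0.42 ± 0.11, edgeR adjusted p = 0.0485). Their paralogs in the other cluster were at 0.05 ± 0.11 (miR-27a-3p) and −0.10 ± 0.14 (miR-23a-3p) and were among the 9 strands of this list that were not called. Of its 11 tested strands 2 fell (18.2%), beside 6.16% of all tested names. The call of miR-23b-3p was lost under 8 of 16 alternatives, and that of miR-27b-3p with library totals, upper-quartile scaling and when either AA library was left out. Among 23 tested strands of the miR-17-92 cluster and its paralogs, which drive proliferation in many tumours, 1 fell (4.35%), beside 6.16% of all tested names. This was miR-25-3p, from 8062 and 9095 CPM to 5727 and 5845 CPM (−0.57 ± 0.11). Its seed partners miR-92a-3p (0.04), miR-92b-3p (0.06) and miR-32-5p (0.06) were not called. MiR-7-5p, from 3 loci, fell from 7379 and 8503 CPM to 5210 and 5377 CPM (−0.59 ± 0.12) while miR-7-1-3p, the 3p strand of one of these loci, rose.

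The miRNAs that bypass DROSHA did not move as one group. Of 5 tested DROSHA-independent names miR-484 alone was called, beside 7.42% of all tested names. MiR-320a was at 10161 and 8552 CPM with WT and 7684 and 8725 CPM with AA (−0.19 ± 0.12), and miR-320b (0.00), miR-320c (−0.02) and miR-320d (−0.08) lay at 0. Mirtrons had 5 of 20 tested strands lower and 0 higher, beside 6.16% and 1.26% of all tested names, with a median of −0.47 against −0.03 over all tested names. These were the 2 strands of miR-1228, miR-1229-3p (44.8 and 28.9 CPM to 6.91 and 6.46 CPM, −2.46 ± 0.29), miR-1224-5p (64.9 and 38.8 CPM to 15.8 and 16.4 CPM, −1.69 ± 0.29) and miR-1226-3p (43.8 and 28.3 CPM to 14.5 and 19.7 CPM, −1.08 ± 0.28). In each of these 5, WT replicate 1 was well above WT replicate 2. The most abundant mirtron strand, miR-877-5p, showed the same order, at 479 and 290 CPM with WT and 237 and 249 CPM with AA, and was not called (−0.66 ± 0.24). The call of miR-1226-3p was lost under 8 of 16 alternatives. MiR-451a, which does not need DICER, was at 85.1 and 79.5 CPM with WT and at 97.1 and 80.4 CPM with AA (0.11 ± 0.19, edgeR adjusted p = 0.819).

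Several families had no called strand: miR-15 and miR-16 (14 tested), miR-130, miR-301 and miR-454 (10), miR-200, which guards the epithelial state (8), miR-29 (7), miR-34, a p53 target (6), the miR-183 cluster (6), miR-26 (5), miR-148 and miR-152 (5) and miR-103 and miR-107 (3). Over all tested names 7.42% were called, so 0 calls in a single list of 3 to 14 strands is close to that share. The medians of these 9 lists lay between −0.17 and 0.17. In the miR-30 family 1 of 11 strands rose (miR-30c-1-3p), beside 1.26% of all tested names. In the miR-181 family 1 of 9 fell, beside 6.16% of all tested names. It was miR-181d-5p, from 96.9 and 96.0 CPM to 55.6 and 47.8 CPM (−0.90 ± 0.16, not called when either AA library was left out). Of 9 tested colon epithelial marker strands 1 was called, miR-31-3p, and of 16 tested miRNAs typical of other tissues 0 were. Both counts are close to the share over all tested names (7.42%), and a difference between the lists was not tested. Scaled by library totals, the sum of the colon list was 61946 and 58197 CPM with WT and 70345 and 66863 CPM with AA, and that of the other-tissue list 4117 and 3969 CPM with WT and 4543 and 4387 CPM with AA. At most 4 of the 25 listed other-tissue names were at 0 reads in a library. Both sums were higher with AA, on a scale where the median log2 fold change of all tested names was itself 0.15. Nearly all of the colon sum in each library was reads of miR-31-5p and miR-31-3p. The other colon names together held fewer reads than the other-tissue list in each WT and AA library. The rise of the colon sum therefore mostly restates that of miR-31-3p and says little about the other members. With TMM factors the list medians were 0.12 (colon) and 0.07 (other tissues), beside −0.03 over all tested names. With spike-in size factors they were −0.47 and −0.53, beside −0.63. The part of these lists in the results was not tested.

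All values above are relative to the typical miRNA of a library. The 30 spike-in RNAs give another scale. WT libraries held 274 and 367 miRNA reads per spike-in read (320 ± 65.9, SD, n = 2), and AA libraries 210 and 206 (208 ± 2.93), which is 64.8% of WT. Both AA libraries were below both WT libraries. A two-sided exact permutation test gave p = 0.333, the smallest possible with 2 libraries on each side. Scaled by spike-in size factors, the median change of all tested names moved from −0.03 to −0.63, and 270 names were called lower (34.0%) and 2 higher (0.252%). All 49 falls remained called, at −4.76 to −1.03. Of the 10 rises 2 remained called, miR-139-3p (0.67) and miR-663a (0.76), and the 4 rises of at least 100 CPM were not: miR-31-3p (0.20), miR-4521 (0.21), miR-7-1-3p (0.25) and miR-196b-3p (0.45). The sources used here do not give whether each library received the same amount of spike-in. By edgeR 0 of the 30 spike-ins differed between the forms relative to each other, with 0 at an unadjusted p under 0.05.

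Set beside the dsRBD deletion in the same cells, AA left most of the fallen miRNAs at a higher level. The deletion libraries are compared with the same WT libraries, so the 2 effects are not independent. By edgeR 235 of 795 names (29.6%) were higher and 214 (26.9%) lower with AA than with the deletion, against 476 and 14 on the spike-in scale and 181 and 276 with library totals. Of the 49 names that fell with AA, 29 were higher with AA than with the deletion, 3 were lower and 17 were not called. Against WT, the deletion libraries were lower in 45 of the 49 (background 34.1%), higher in 1 (background 28.1%) and not called in 3. MiR-331-3p was at 9.29 and 11.6 CPM with the deletion against 384 and 330 CPM with AA (AA minus deletion 5.05), and miR-3615 at 8.26 and 9.85 CPM against 141 and 137 CPM (3.91). MiR-615-3p and miR-3200-3p each had 0 and 4 reads in the deletion libraries, which is 0 and 2.32 CPM. With AA they were at 150 and 170 CPM and at 96.1 and 85.4 CPM. The deletion libraries were smaller, at 824987 and 1353117 miRNA reads, so 3 reads came to 3.10 and 1.74 CPM there. MiR-222-3p was higher by 3.52 with AA. In these the AA level lay between those of WT and the deletion. MiR-484 was closer to the deletion, at 33.0 and 27.2 CPM with the deletion against 73.4 and 71.9 CPM with AA (1.29, adjusted p = 0.000257).

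Some names had similar levels with both forms. MiR-361-3p was at 171 and 166 CPM with the deletion and 168 and 170 CPM with AA, a difference of 0.00 (edgeR adjusted p = 1.0). MiR-125b-5p was at 802 and 1132 CPM with the deletion and 997 and 989 CPM with AA (0.04), and let-7f-5p and miR-98-5p differed by 0.02 and 0.04. None of these 4 differences was called. On the spike-in scale all 4 were called higher with AA, by 1.19 to 1.25, and with library totals let-7f-5p was called lower with AA (−0.33). Among the rises, miR-4521 was at 6596 and 8669 CPM with the deletion, above AA (AA minus deletion −0.78, but 0.39 on the spike-in scale), and miR-31-3p at 5344 and 6103 CPM, below both AA and WT.

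**Figure D4:**
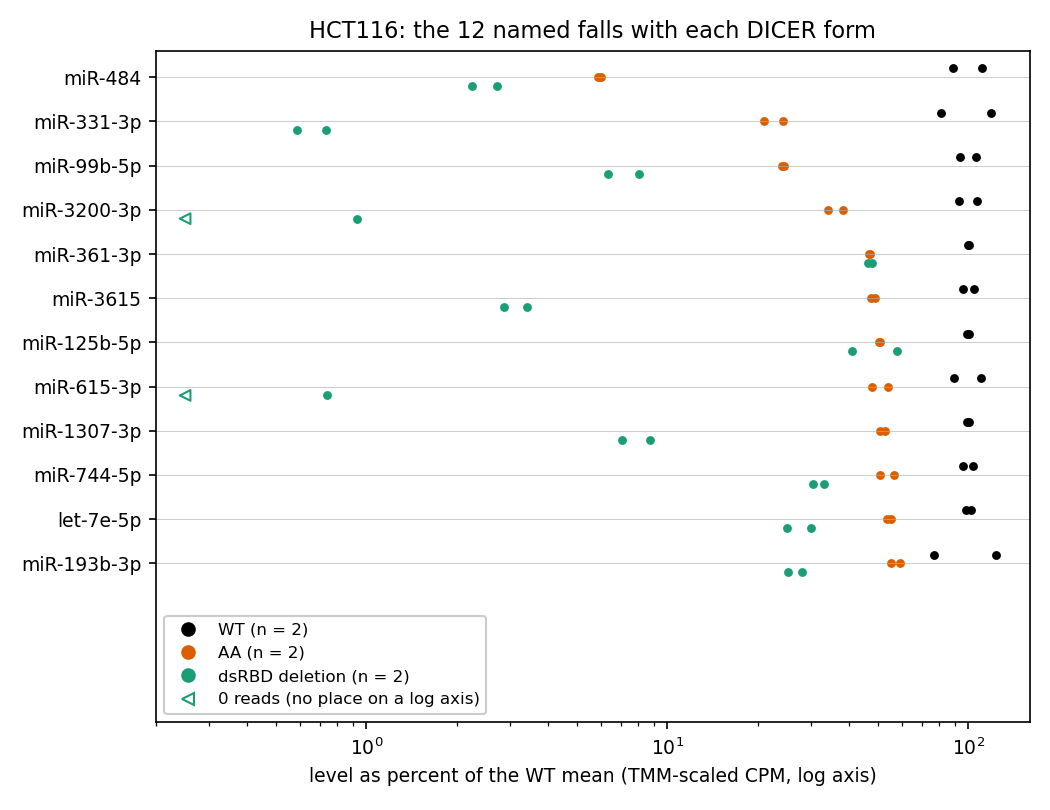
Level of the 12 named falls in each HCT116 library as percent of the WT mean (TMM-scaled CPM, log axis). Black points are WT, orange AA and green dsRBD deletion libraries (n = 2 each), and an open triangle marks a library with 0 reads. The AA points lie between WT and deletion for most names and meet the deletion points for miR-361-3p and miR-125b-5p.

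HEK293T offers the same change of DICER form in another line, with its own WT libraries. There 95 of 626 names (15.2%) were lower with AA and 39 (6.23%) higher by edgeR, against 190 and 8 on the spike-in scale and 41 and 129 with upper-quartile factors. Of the 49 names that fell in HCT116, 38 were tested in HEK293T: 30 fell, 8 were not called and 0 rose. The median of these 38 was −1.28 in HEK293T and −0.85 in HCT116. Of the 10 rises 8 were tested in HEK293T and 1 was called higher there, miR-31-3p (1.15 ± 0.17), a call lost on the spike-in scale (0.67). MiR-484 fell by 6.19 ± 0.26 in HEK293T, miR-99b-5p by 4.29 ± 0.27, miR-331-3p by 3.56 ± 0.31 and let-7e-5p by 3.55 ± 0.30. These are larger falls than in HCT116, and the difference between the lines was tested as a contrast over all 12 libraries. MiR-361-3p (−0.97 ± 0.16) and miR-1307-3p (−0.83 ± 0.17) had falls close in size to those in HCT116. MiR-125b-5p (−0.09 ± 0.29) and miR-193b-3p (−0.49 ± 0.18) were not called in HEK293T.

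The AA effect differed between the lines for 33 of 844 names (3.91%) by edgeR, with a more negative effect in HEK293T for 25 (2.96%) and in HCT116 for 8 (0.948%). These counts were 71 and 7 with library totals, 14 and 8 with spike-in size factors, 49 and 1 with the spike-in total and 25 and 19 with DESeq2 size factors. Of the 49 falls 47 could be tested for this difference and 11 were called, 10 of them with the larger fall in HEK293T. Let-7e-5p differed by 2.58 ± 0.35 on the log2 scale (HCT116 minus HEK293T, adjusted p = 9.7e-05), miR-99b-5p by 2.11 ± 0.29 (9.7e-05) and miR-484 by 1.99 ± 0.29 (0.000155). MiR-331-3p differed by 1.28 ± 0.33 (0.0269), a call lost on the spike-in scale and without some of the libraries. For miR-361-3p the difference was −0.23 ± 0.25 (0.722) and for miR-1307-3p −0.23 ± 0.26 (0.723). MiR-7-1-3p, which rose in HCT116, was at −0.49 ± 0.21 in HEK293T, and the lines differed by 1.22 ± 0.26 (0.00679), a call lost on the spike-in scale.

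**Figure D5:**
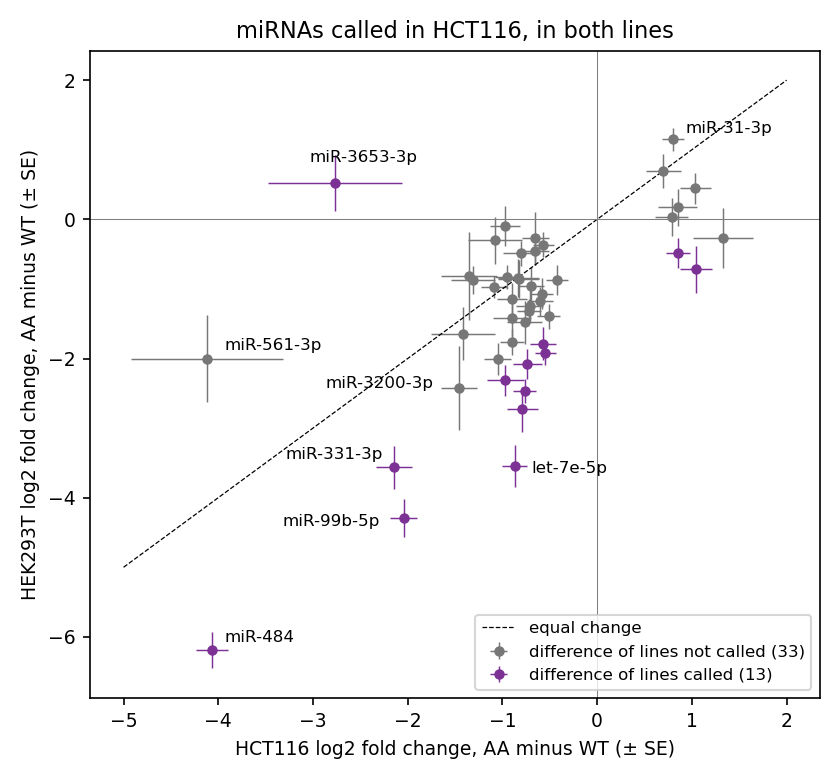
Log2 fold change, AA minus WT, in HCT116 (horizontal) and HEK293T (vertical), with SE bars, for the 46 names called in HCT116 and tested in HEK293T. The dashed line marks equal change, and purple marks the 13 names whose difference between the lines was called by edgeR. Let-7e-5p, miR-99b-5p and miR-484 lie well below the line.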

How the data were processed

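The deposited values are raw read counts per miRNA name and per spike-in RNA, one table per library. Per the labels, 100 µg of total RNA went into each AQ-seq library. Per the submitters' processing notes, the authors used cutadapt, BWA and bedtools with the builds hg38 and mm10, and their versions and roles and the rule for reads that match several names are not stated. Names with near-identical sequence (miR-199a-3p and miR-199b-3p, miR-151a-5p and miR-151b, let-7 members) may share reads.

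Counts of the 6 HCT116 libraries were filtered with filterByExpr (minimum count 10), scaled by TMM and tested with edgeR 4.0.16 (R 4.3.3) by a quasi-likelihood F test on group means, with 3 residual degrees of freedom, two-sided, with Benjamini-Hochberg adjustment over all 795 names and a threshold of 0.05. Every adjusted p is from these edgeR fits, and an SE is the log2 fold change divided by the square root of F. HEK293T was fitted in the same way, and line differences over all 12 libraries. Arm use was the interaction of arm and form blocked by library. A hairpin needed 10 or more reads in each arm in 2 or more libraries. Spike-ins (0.272% to 1.55% of reads in HCT116) stayed out of library sizes. The code was tested on simulated counts.

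Named miRNAs were, among called names without overlap, the 12 largest falls and rises of at least 100 CPM and 5 each below it, the 6 most abundant names, leading members of the lists described and the other arms. Called members of a list were added after their values were seen. For arms and lines, up to 5 each way were taken, and further values were added for names already described. The members and lists were chosen with earlier results of these data known. Each replicate pair differed by more than sampling noise. Annotation is GENCODE release 29 on GRCh38. DESeq2 1.42.0 served as an alternative.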

Additional observations from a re-analysis of the deposited data

Results flagged for a closer look

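The AA effect differed between HCT116 and HEK293T by an edgeR contrast of the 2 effects for the following names of at least 100 CPM in both lines, taken as the 5 largest each way. The effect was less negative in HCT116 for let-7e-5p, by 2.58 on the log2 scale, miR-99b-5p, by 2.11, miR-484, by 1.99, miR-151a-5p, by 1.58, and let-7g-5p, by 1.38. Of these, let-7g-5p was not called in HCT116 (−0.06 ± 0.12) and fell in HEK293T (−1.53 ± 0.22), while the other 4 fell in both lines. In the other direction the difference, HCT116 minus HEK293T, was −1.45 for miR-625-3p, −1.43 for miR-182-5p, −1.40 for miR-30a-3p, −1.30 for miR-30e-3p and −0.96 for miR-30a-5p. These 5 rose in HEK293T, by 0.80 to 1.51, and were not called in HCT116 (−0.06 to 0.19). With scaling by the spike-in total the calls of miR-625-3p, miR-182-5p, miR-30a-3p and miR-30e-3p were lost. That of miR-30a-5p was lost under 9 of 16 alternatives.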

How the results depend on the processing

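All 59 calls kept their direction under the 14 alternatives that gave each a value. So did the 57 with a value under DESeq2's Wald test and the 48 with a value at a mean count of at least 50. The WT and AA libraries of all 59 did not overlap, so leaving out a library could hardly reverse a direction. Of 2315 values of 163 named results beside the main ones, 2048 stayed on their side of the threshold, 192 lost a call, 72 gained one and 3 reversed, all in AA minus deletion: let-7f-5p, at −0.33 with library totals, and miR-4521, at 0.39 with spike-in size factors and 0.55 with the spike-in total. Of the 2048, 128 that were uncalled both ways changed sign. The cause of the changes was not tested.

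For AA against WT, 10 names were higher and 49 lower. There were 22 and 23 with library totals, 23 lower with upper-quartile factors, 2 and 270 with spike-in size factors, 5 and 181 with the spike-in total, 20 higher from the 4 WT and AA libraries alone, and 1 to 19 higher and 9 to 66 lower without 1 library each. Taken over all 795 names together, replicate numbers did not pair the libraries (correlations of deviations −0.0910, 0.151 and −0.0563). This does not settle it for single names, and miR-4521 was higher in replicate 2 with WT, AA and the deletion. With a replicate block 7 were higher and 39 lower. In arm use (11 toward 3p and 20 toward 5p) the replicate block gave 3 and 6, and leaving out 1 library 6 to 8 and 8 to 11.

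In HEK293T (39 higher, 95 lower) upper-quartile factors gave 129 and 41, spike-in size factors 8 and 190, the spike-in total 2 and 290, no filter 23 higher, and leaving out 1 library 18 to 35 and 36 to 101. For the line difference (25 higher, 8 lower), library totals gave 71 higher, spike-in size factors 14 higher, the spike-in total 49 and 1, DESeq2 size factors 19 lower, no filter 14 lower, DESeq2's Wald test 21 lower, and leaving out 1 library 16 to 33 and 4 to 19. For AA against the deletion (235 higher, 214 lower), spike-in size factors gave 476 and 14, the spike-in total 530 and 10, no filter 141 lower, and leaving out 1 library 104 to 154 lower. With 2 libraries a form, a name below 10 CPM had a median SE of 0.48, so changes of that size were not detectable there.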
